A study of Mus musculus with 18 samples.

Results

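The BCL2 family genes described here are Bcl2a1a, Bcl2a1b, Bcl2a1d, Bcl2, Bcl2l1, Mcl1, Bax, Bak1, Bcl2l11 and Bid. They were chosen by gene symbol, with earlier results of these data known, and make up 10 of the 22708 genes of the deposited expression table. All 10 were found there and passed the minimum level for testing in every comparison. Eosinophils were sorted from the small intestine as CD11b+MHC-II-SiglecF+SSChi cells, and their RNA was sequenced in bulk, 1 library from each of 18 mice. There were 6 libraries labelled wildtype (WT), 6 labelled Ahr-/- and 6 labelled Ahrr-/-, and each group held 3 males and 3 females. All mice were of the strain C57/BL6 and none had a treatment. Ahr encodes the aryl hydrocarbon receptor (AHR), a transcription factor that is switched on by ligands from diet and microbes, and Ahrr encodes its repressor.

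The labels name neither the deleted part of Ahr or Ahrr nor the age of the mice. The study's methods state 1 age range for all of its mice and say that Ahr-/- mice and their WT controls came from different litters and cages. Litter and housing therefore cannot be told apart from genotype. The study's text does not report on the mice labelled Ahrr-/-, so their litters and housing are not known. The total count per library lay between 3842977 and 8149200 in WT, between 6581818 and 10284124 in the libraries labelled Ahr-/- and between 8788867 and 12046933 in those labelled Ahrr-/-. WT was the least deep group, so low counts are the least precise there. Levels are given on the deposited scale, which is variance-stabilized log2 expression, where the lowest value of the table stands for a count of 0. On this scale a difference between low counts is smaller than the log2 ratio of the counts. Differences are the group named first minus the group named second, adjusted p-values are from limma over all tested genes, and a gene is called when its adjusted p is below 0.05. These p-values measure the spread between these libraries.

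Proteins of the BCL2 family decide whether the outer membrane of mitochondria stays closed during stress. Pro-survival members bind and restrain the effectors BAX and BAK, while BH3-only members bind pro-survival members and, in part, activate the effectors, and an opened membrane releases cytochrome c, which leads to caspase activation and cell death. Eosinophils are short-lived outside tissue, and cytokines of the IL-5 family, acting through a shared receptor beta chain, prolong their life.

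The targeted genes were looked at first. Ahr had a lowest, median and highest level of 13.40, 13.76 and 14.40 in WT, of 14.15, 14.55 and 14.67 in the libraries labelled Ahr-/-, and of 13.03, 13.51 and 14.42 in those labelled Ahrr-/-. Ahr was thus not lower in the libraries labelled Ahr-/- (difference to WT 0.61, standard error 0.19, adjusted p = 0.0557 from limma). Ahrr had counts of 550 to 1024 in WT, of 0 to 10 in the libraries labelled Ahr-/- and of 1104 to 2151 in those labelled Ahrr-/-. Ahrr was thus not lower in the libraries that carry its name (difference to WT 0.28, adjusted p = 0.683 from limma). Which part of either gene was deleted is not stated, so counts summed over all exons are no check of the labels, and the groups are called by their labels throughout. The study names Ahrr itself, Nqo1, Tiparp and Cyp1b1 among the canonical AHR target genes. Nqo1 and Tiparp differed by -1.82 and -2.60 between the libraries labelled Ahr-/- and WT (adjusted p = 1.27e-07 and 1.56e-07 from limma). Between those labelled Ahrr-/- and WT they differed by 0.113 and -0.155 (adjusted p = 0.831 and 0.868 from limma). Cyp1b1, a gene that AHR induces, had counts of 218 to 917 in WT, of 1 to 5 in the libraries labelled Ahr-/- and of 867 to 1525 in those labelled Ahrr-/-. These counts are not corrected for depth, and on the deposited scale Cyp1b1 had 8.68 to 10.23 in WT and 9.27 to 10.45 in the libraries labelled Ahrr-/-, which overlap (difference 0.41, adjusted p = 0.707 from limma). Xist, expressed from the inactive X chromosome, had counts of 12863 to 42459 in females and of 16 to 57 in males, as the sex labels say.

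A pair of libraries stood apart from the rest. In WT female 3, 10.85% of the genes were at 0, and in female 3 of the libraries labelled Ahr-/- 13.27% were. In the other 16 libraries the share lay between 24.1% and 33.3%. Results below are given with all libraries. Values without this pair are also given for some of the members and for the summed Bcl2a1 count. Those of the pathway genes and markers are given with all libraries only, so whether their calls rest on this pair is not shown.

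The sorted cells carried some markers of eosinophils and had others at low counts only. Ccr3 had levels of 13.14 to 13.88 in WT, 13.43 to 13.90 in the libraries labelled Ahr-/- and 12.38 to 13.93 in those labelled Ahrr-/-. Siglecf, the marker used for sorting, had 10.72 to 11.21 in WT, 11.21 to 11.63 in the libraries labelled Ahr-/- and 9.82 to 11.19 in those labelled Ahrr-/-. It was 0.37 higher in the libraries labelled Ahr-/- than in WT (adjusted p = 0.0529) and 0.72 higher than in those labelled Ahrr-/- (adjusted p = 0.02), both from limma, and in neither case did the groups overlap. The granule genes Epx, Prg3, Ear1, Ear2 and Ear6 had mean normalized counts of 10.9, 1.29, 6.11, 4.56 and 0.344 in WT and did not reach the minimum level in either comparison with WT. Prg2, another granule gene, was 2.30 higher in the libraries labelled Ahr-/- than in WT (adjusted p = 3.47e-07 from limma).

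Levels of different genes were compared as normalized counts per kb of exon. In WT, Mcl1 was the most abundant member with 2073 to 3602 per kb (median 2606), followed by Bcl2a1b with 578.2 to 1302 (median 865.1), and each of these was above its next neighbour in every library. Bcl2a1a, Bcl2l11, Bak1, Bcl2a1d, Bax and Bid followed with medians of 196.2, 167.7, 145.0, 115.6, 92.9 and 81.3, and each of these overlapped its neighbour in that order. Bcl2 (median 30.6) lay below Bid in every library, and Bcl2l1 (median 12.7) lay below Bcl2 in every library. The median of Bcl2a1b in the libraries labelled Ahr-/- was 2081 per kb and its range overlapped that of Mcl1, whose median was 2389. Bcl2a1b, in the libraries labelled Ahrr-/-, had a median of 997.0 per kb and stayed below Mcl1 (median 2526) in every library.

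**Figure D1:**
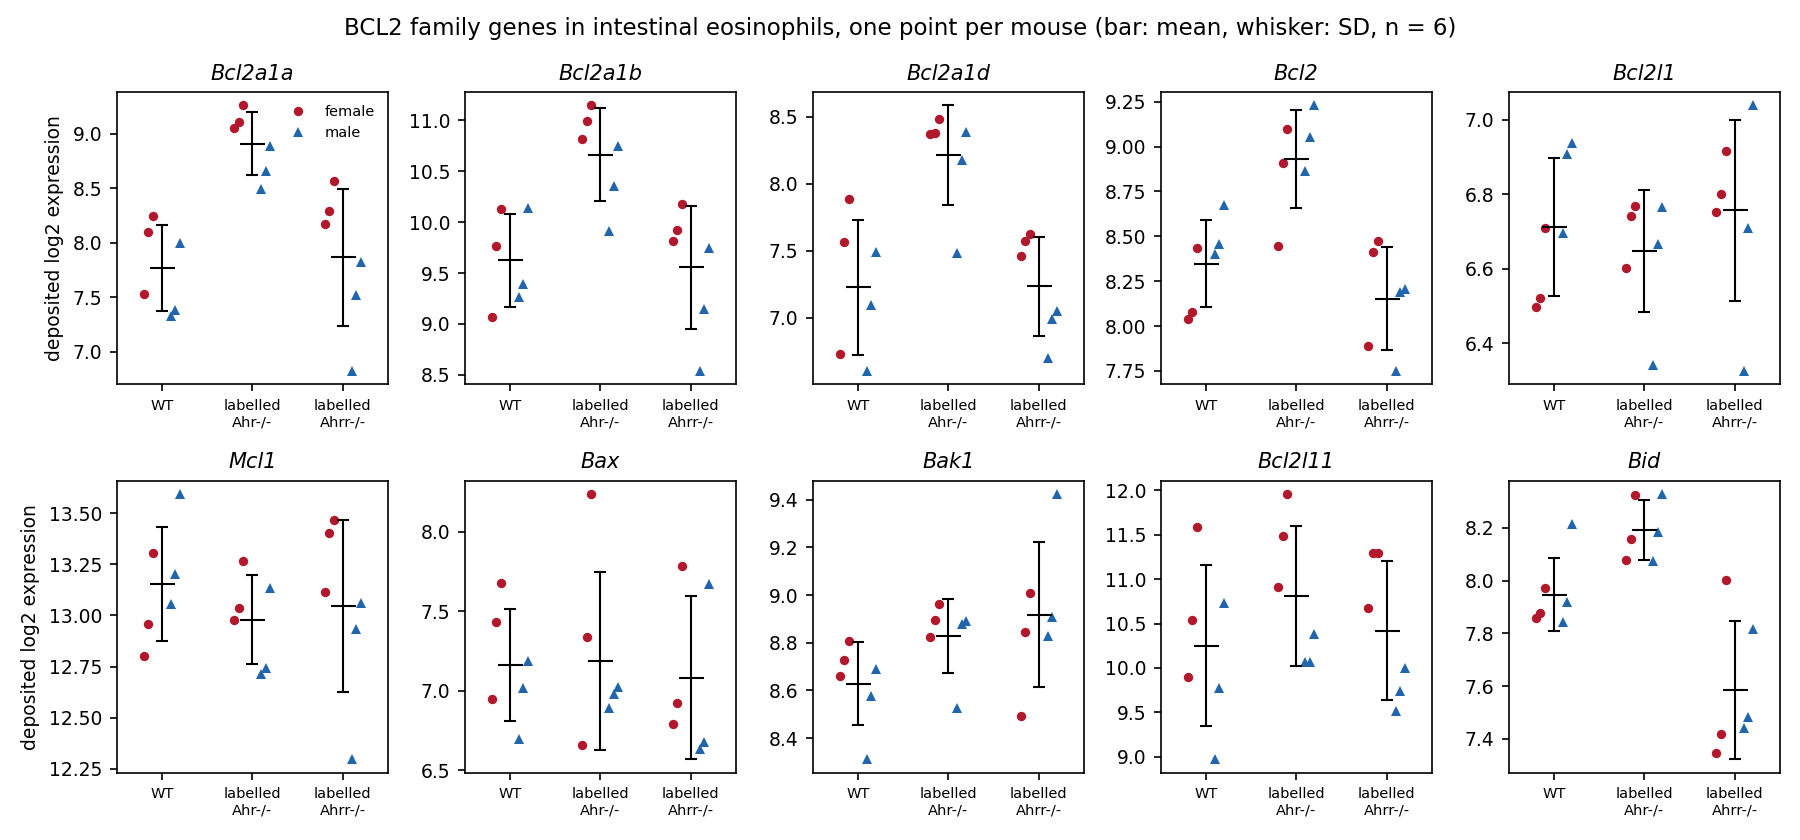
Deposited log2 expression of the 10 genes in each mouse, with females as red circles and males as blue triangles, and with the mean and SD of each group of 6. Bcl2a1a separates the libraries labelled Ahr-/- (8.49 to 9.26) from WT (7.33 to 8.24), and Bcl2l11 is higher in females than in males.

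Among the pro-survival members, Bcl2a1a, Bcl2a1b and Bcl2a1d encode near-identical proteins that bind BH3-only members, and these copies lie near each other on chromosome 9 of GRCm38. Bcl2a1a (Entrez ID 12044) spans 88956920 to 88962416 on the plus strand, Bcl2a1b (12045) spans 89199273 to 89207838 on the plus strand and Bcl2a1d (12047) spans 88723288 to 88731850 on the minus strand. Their GENCODE transcripts are 98.2% identical between Bcl2a1a and Bcl2a1b, 98.8% between Bcl2a1a and Bcl2a1d and 99.1% between Bcl2a1b and Bcl2a1d. The reads were at least 75 bases long, and of all windows of 75 bases, 55.2% of those in Bcl2a1a, 43.5% of those in Bcl2a1b and 67.6% of those in Bcl2a1d also occur in another of these copies. The submitters' notes name RSEM, which shares such reads among copies by estimate, so the split between the copies is uncertain. Which tool made the counts is not settled, since the study's methods name another pipeline, and a tool that drops reads matching several copies would lower their sum as well. The fourth copy, Bcl2a1c, had a count of 0 or 1 in each of the 18 libraries.

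Bcl2a1a had a lowest, median and highest level of 7.33, 7.77 and 8.24 in WT. It had 8.49, 8.97 and 9.26 in the libraries labelled Ahr-/-, and 6.82, 7.997 and 8.57 in those labelled Ahrr-/-. All 6 libraries labelled Ahr-/- were above the highest WT library, which was female 3, while those labelled Ahrr-/- overlapped WT on both sides. Bcl2a1a was 1.15 higher in the libraries labelled Ahr-/- than in WT (95% interval 0.84 to 1.46, adjusted p = 7.66e-05 from limma), and its mean normalized count was 427 against 164.

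Bcl2a1b, the copy with the most counts, had a lowest, median and highest level of 9.06, 9.58 and 10.14 in WT. It had 9.91, 10.78 and 11.15 in the libraries labelled Ahr-/-, and 8.54, 9.78 and 10.18 in those labelled Ahrr-/-. Of the libraries labelled Ahr-/-, 5 of 6 were above the highest WT library, and male 1 lay within the WT range. The difference to WT was 1.04 (95% interval 0.60 to 1.47, adjusted p = 0.00419 from limma).

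Bcl2a1d, the copy with the fewest counts of the 3, had 6.60, 7.29 and 7.89 in WT, 7.48, 8.38 and 8.49 in the libraries labelled Ahr-/-, and 6.70, 7.25 and 7.62 in those labelled Ahrr-/-. Male 1 was again the low library among those labelled Ahr-/-, and the other 5 were above every WT library. The difference to WT was 0.99 (95% interval 0.56 to 1.42, adjusted p = 0.00543 from limma).

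Bcl2, whose protein guards the outer mitochondrial membrane, is Entrez ID 12043 and lies on chromosome 1 from 106538176 to 106714290. It had 8.04, 8.42 and 8.67 in WT, 8.45, 8.98 and 9.23 in the libraries labelled Ahr-/-, and 7.75, 8.20 and 8.48 in those labelled Ahrr-/-. Of the libraries labelled Ahr-/-, 5 of 6 were above every WT library, and the remaining one still lay above the WT median. The difference to WT was 0.59 (95% interval 0.32 to 0.85, adjusted p = 0.00705 from limma).

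The other pro-survival members are Mcl1 (Entrez ID 17210, chromosome 3, 95656944 to 95663179) and Bcl2l1 (12048, chromosome 2, 152758732 to 152833803). Mcl1, a short-lived protein that binds BAK and BIM, had 12.80, 13.13 and 13.60 in WT, 12.72, 13.01 and 13.27 in the libraries labelled Ahr-/-, and 12.30, 13.09 and 13.47 in those labelled Ahrr-/-. Bcl2l1, which encodes BCL-XL, had low levels, with counts of 18 to 66 in WT and of 31 to 62 in the libraries labelled Ahr-/-. Neither was called against WT: the difference was -0.18 for Mcl1 (95% interval -0.49 to 0.14) and -0.06 for Bcl2l1 (95% interval -0.33 to 0.20) in the libraries labelled Ahr-/-.

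The effectors, which open the mitochondrial membrane, are Bax (Entrez ID 12028, chromosome 7, 45461695 to 45466903) and Bak1 (12018, chromosome 17, 27019812 to 27028627), and neither was called in any comparison. Bax had levels of 6.70 to 7.67 in WT, 6.66 to 8.24 in the libraries labelled Ahr-/- and 6.63 to 7.78 in those labelled Ahrr-/-. Its highest value came from female 3 of the libraries labelled Ahr-/-, one of the pair with few genes at 0, and over the 18 libraries Bax fell as the share of genes at 0 rose (Pearson r = -0.603, a description only). The difference to WT was 0.03 with all libraries (95% interval -0.42 to 0.47) and -0.08 without that pair. Bak1 had 8.31 to 8.81 in WT, 8.53 to 8.96 in the libraries labelled Ahr-/- and 8.49 to 9.42 in those labelled Ahrr-/-. In each of the groups labelled as knockouts, 5 of 6 libraries were above the highest WT library, with a difference to WT of 0.20 (adjusted p = 0.245) in the libraries labelled Ahr-/- and of 0.29 (adjusted p = 0.671) in those labelled Ahrr-/-, both from limma.

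The BH3-only members measured here are Bcl2l11 (Entrez ID 12125, chromosome 2, 128126038 to 128162547), which encodes BIM, and Bid (12122, chromosome 6, 120893119 to 120917062), whose protein is cleaved downstream of death receptors. Bcl2l11 had 8.97, 10.22 and 11.59 in WT, 10.06, 10.65 and 11.96 in the libraries labelled Ahr-/-, and 9.51, 10.34 and 11.30 in those labelled Ahrr-/-. It had the widest spread of the members within WT, and its difference of 0.56 between the libraries labelled Ahr-/- and WT was smaller than the standard deviation of 0.91 within WT (95% interval -0.06 to 1.18, adjusted p = 0.265 from limma). Bid had 7.84, 7.90 and 8.21 in WT, 8.07, 8.17 and 8.33 in the libraries labelled Ahr-/-, and 7.35, 7.46 and 8.003 in those labelled Ahrr-/-. Bid was lowest in the libraries labelled Ahrr-/-, 5 of which were below every WT library, and it did not pass the correction in either comparison with WT (adjusted p = 0.156 for the libraries labelled Ahr-/- and 0.617 for those labelled Ahrr-/-, from limma).

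Against WT, 4 of the 10 members were thus called in the libraries labelled Ahr-/-, all of them higher and all pro-survival. Bcl2a1a, Bcl2a1b and Bcl2a1d are among these, and reads may be shared among such near-identical copies. The copies are therefore not separate results, here or in the median difference below. Among the 11346 genes tested in that comparison, 8.84% were called in either direction and 5.16% were called higher. The members were chosen with earlier results known, and the study itself reported higher Bcl2a1 genes in Ahr-/- eosinophils. Setting the members beside all genes is therefore a description and not a test. Bcl2a1a was the 1 member whose groups did not overlap, beside 2.62% of all tested genes that lay higher without overlap. The median difference of the 10 members was 0.40, and that of all tested genes was -0.004. In bulk RNA, more RNA per cell and more cells of a kind cannot be told apart. Without the pair of libraries with few genes at 0, the differences of Bcl2a1a, Bcl2a1b, Bcl2a1d and Bcl2 were 1.17, 0.999, 1.0 and 0.53 (adjusted p = 0.000585, 0.0316, 0.0287 and 0.047 from limma). Over all tested genes, 586 were called without that pair, in place of 1003. Under median centring and under quantile normalization, 4 members were again called.

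In the libraries labelled Ahrr-/-, 0 of the 10 members were called by limma against WT, beside 0.0779% of all tested genes, and 1 member (Bid) had an unadjusted p below 0.05. The differences of the members lay between -0.36 for Bid and 0.29 for Bak1, with a median of -0.03 against 0.01 for all tested genes. The 95% interval of the difference reached from -0.34 to 0.54 for Bcl2a1a and from -0.54 to 0.15 for Bcl2. Both comparisons with WT share the WT libraries, so the groups labelled as knockouts were also compared directly.

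In that direct comparison, 5 of the 10 members were called, all of them higher in the libraries labelled Ahr-/-. The Bcl2a1 copies are again not separate results, and the members were chosen with earlier results of these data known. Markers of cell types called in this comparison are given further below. Of the genes tested, 14.9% were called in either direction, 6.84% were called higher, and 3.01% lay higher without overlap. The called members were Bcl2a1b with a difference of 1.11 (adjusted p = 0.00188), Bcl2a1a with 1.05 (adjusted p = 0.00112) and Bcl2a1d with 0.98 (adjusted p = 0.000666), all from limma. Bcl2 followed with 0.78 (adjusted p = 0.0066 from limma). In each of these 4 genes, 5 of 6 libraries labelled Ahr-/- were above the highest library labelled Ahrr-/-. Bid was 0.61 higher (adjusted p = 0.00923 from limma), and it was the 1 member without overlap, with 8.07 as the lowest value in the libraries labelled Ahr-/- and 8.003 as the highest in those labelled Ahrr-/-. The median difference of the members was 0.50 against 0.003 for all tested genes. Bcl2l11 was 0.39 higher (adjusted p = 0.135 from limma), and it became called at 0.515 once female 3 of the libraries labelled Ahr-/- was left out (adjusted p = 0.0418 from limma, with a range of 0.0418 to 0.523 over all alternatives).

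**Figure D2:**
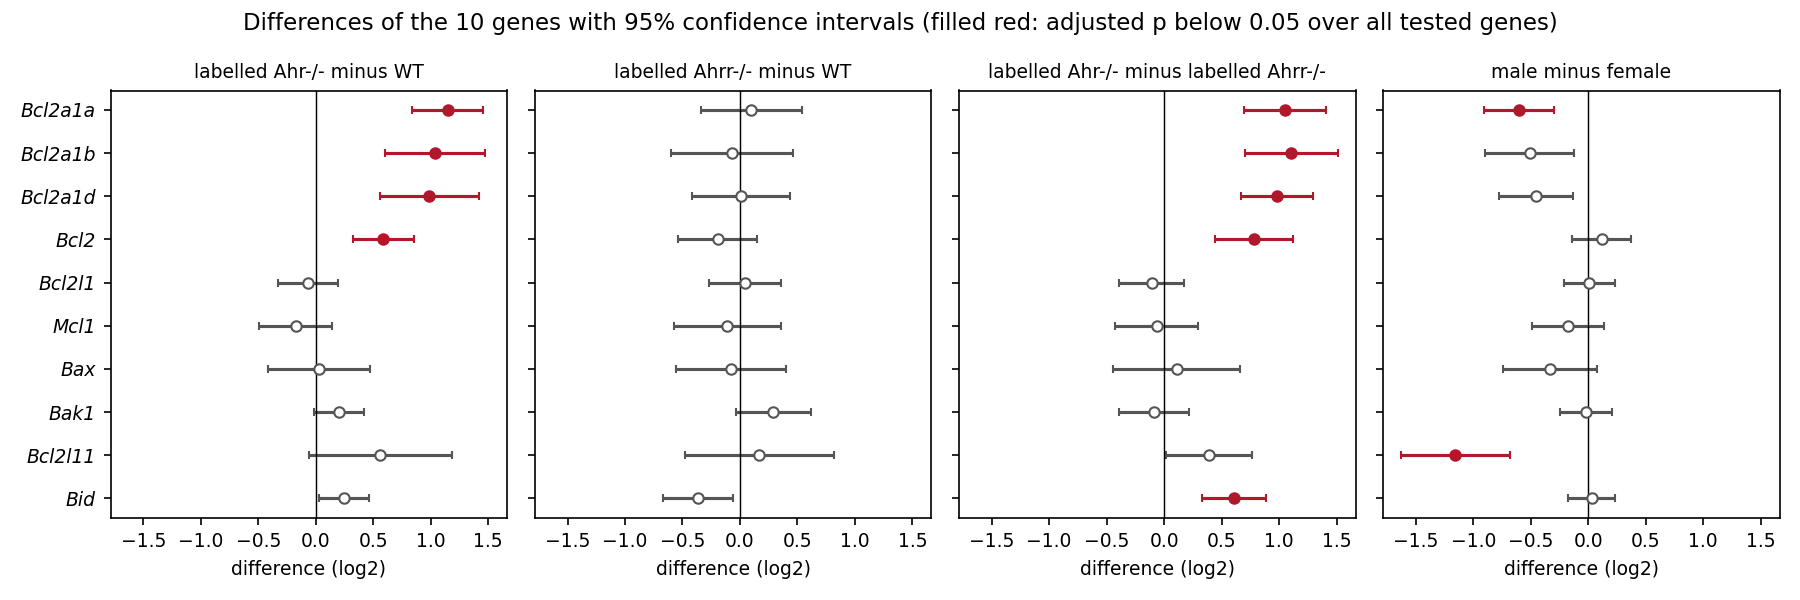
Difference of each gene in log2 units (horizontal axis) with its 95% confidence interval, in 4 comparisons, with filled red circles for genes called by limma over all tested genes. The Bcl2a1 copies and Bcl2 lie to the right of 0 against WT and against the libraries labelled Ahrr-/-, and no gene is filled between the libraries labelled Ahrr-/- and WT.

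The sum of Bcl2a1a, Bcl2a1b and Bcl2a1d does not depend on how reads kept in the counts were split among the copies. The summed normalized count had a lowest, median and highest value of 649.3, 983.4 and 1446 in WT, of 1319, 2412 and 2963 in the libraries labelled Ahr-/-, and of 416.5, 1126 and 1548 in those labelled Ahrr-/-. Of the libraries labelled Ahr-/-, 5 of 6 were above the highest library of either other group, and male 1 was the exception. The means were 1024 ± 354 in WT, 2291 ± 623 in the libraries labelled Ahr-/- and 1027 ± 409 in those labelled Ahrr-/- (SD, n = 6 each). The ratio of the libraries labelled Ahr-/- to WT was 2.24 (exact two-sided permutation test, p = 0.00649, where 0.00216 is the smallest p that 924 arrangements allow). The ratio to the libraries labelled Ahrr-/- was 2.23 (exact two-sided permutation test, p = 0.00433). Between the libraries labelled Ahrr-/- and WT the mean differed by 3.24 counts (exact two-sided permutation test, p = 0.987). Without the pair of libraries with few genes at 0, the difference to WT was 1191 counts (exact two-sided permutation test, p = 0.0238).

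Bcl2a1b held between 68.3% and 78.4% of the counts in each library, with medians of 75.0% in WT, 70.1% in the libraries labelled Ahr-/- and 72.2% in those labelled Ahrr-/-. Bcl2a1a held between 12.9% and 22.6%, and Bcl2a1d between 6.1% and 12.6%, with medians of 9.4%, 10.6% and 9.8% in the same order of groups. Over the 18 libraries, the Pearson r between Bcl2a1a and Bcl2a1b was 0.955, between Bcl2a1b and Bcl2a1d 0.947 and between Bcl2a1a and Bcl2a1d 0.935. Since reads may be shared among the copies by estimate, these correlations describe the deposited values and not 3 separate measurements.

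**Figure D3:**
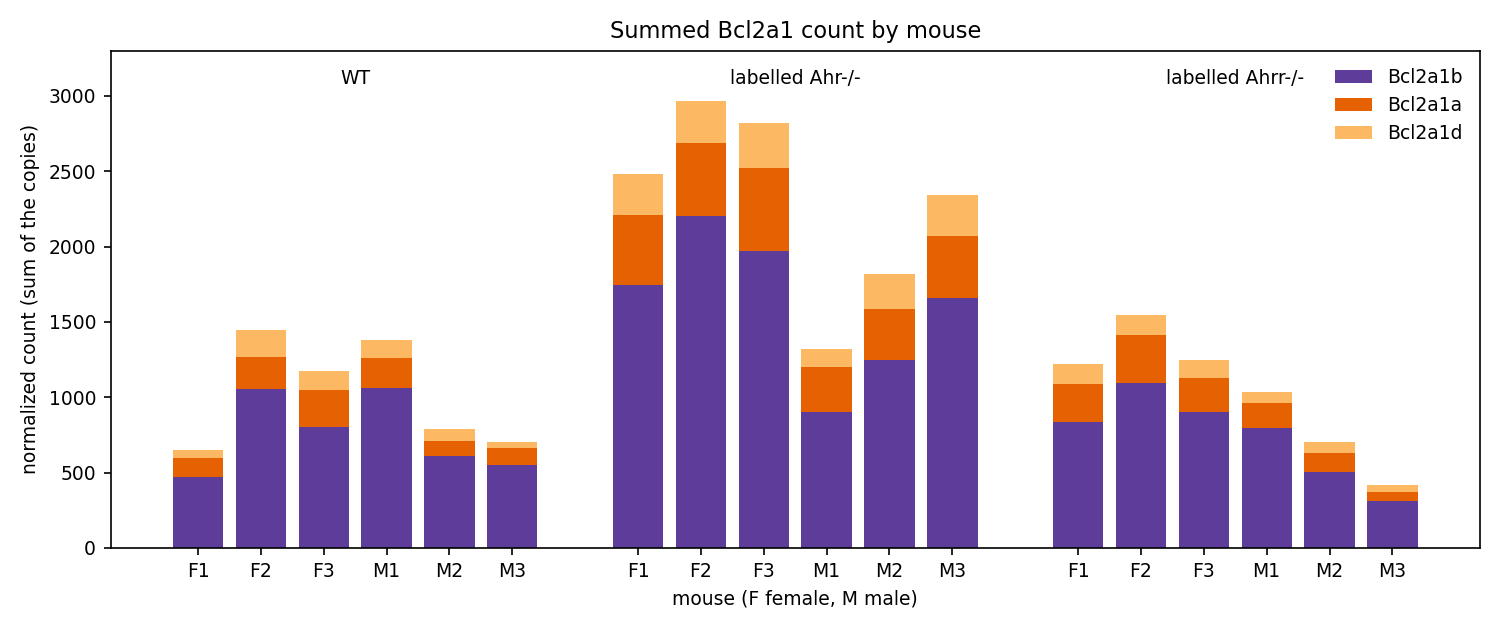
Summed normalized count of Bcl2a1b, Bcl2a1a and Bcl2a1d (vertical axis, from 0) in each mouse, stacked by copy. The sum lies between 1319 and 2963 in the libraries labelled Ahr-/-, and its highest value is 1446 in WT and 1548 in the libraries labelled Ahrr-/-.

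The sequences just before the starts of these copies are shown as a description of these near-identical genes. They are from RefSeq on GRCm38.p6, which held promoters for all 10 members. The stretches lie at chr9:88956800-88956919 on the plus strand for Bcl2a1a, at chr9:89199109-89199228 on the plus strand for Bcl2a1b and at chr9:88731851-88731964 on the minus strand for Bcl2a1d. The stretches of Bcl2a1a and Bcl2a1d end at the base before the annotated start, and that of Bcl2a1b covers positions -164 to -45 from its own annotated start. They are printed 5′ to 3′ on the strand of the gene. Capitals mark the letters CACGC, which read GCGTG on the other strand, and the letters at the same place in Bcl2a1a.
Bcl2a1a: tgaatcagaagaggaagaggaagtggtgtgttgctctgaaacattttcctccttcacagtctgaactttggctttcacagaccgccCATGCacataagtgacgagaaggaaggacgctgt
Bcl2a1b: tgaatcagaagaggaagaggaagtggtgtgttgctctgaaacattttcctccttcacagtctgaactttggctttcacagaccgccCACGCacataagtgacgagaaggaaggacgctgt
Bcl2a1d: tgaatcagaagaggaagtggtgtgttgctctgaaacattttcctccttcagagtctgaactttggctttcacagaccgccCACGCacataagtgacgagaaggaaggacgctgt

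The stretches of Bcl2a1b and Bcl2a1a share 119 of 120 bases and differ by C89T, with the base of Bcl2a1b first and positions counted from 1 at the 5′ end of the printed stretch. Bcl2a1d shares 113 bases with the 120 of Bcl2a1b and 112 with the 120 of Bcl2a1a. GCGTG is the core of the xenobiotic response element to which AHR binds with its partner ARNT. It was searched on both strands of the 250 bases before each start, and 28.2% of 32841 promoters hold it. The 10 members have 13 promoters, of which 4 hold it, 1 each of Bcl2a1b, Bcl2a1d, Bcl2l1 and Bcl2l11. The letters GGGA, any 4 bases and CC, which resemble an NF-kB site, were searched the same way and occur in 17.6% of all promoters and in 1 of the 13, that of Bak1. A match is a description of the sequence and not a binding site.

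The comparison of males with females used all 18 libraries with genotype in the model. In it, 2 of the 10 members were called, both lower in males. Of the 11468 genes tested, 3.06% were called in either direction and 2.46% were called lower. The median difference of the members, male minus female, was -0.26 against 0.01 for all tested genes. Bcl2l11 had levels of 9.89, 10.54 and 11.59 in WT females and of 8.97, 9.78 and 10.73 in WT males. In the libraries labelled Ahr-/- it had 10.91, 11.48 and 11.96 in females and 10.06, 10.07 and 10.38 in males. In those labelled Ahrr-/- it had 10.68, 11.29 and 11.30 in females and 9.51, 9.75 and 9.997 in males. Every female was above every male within each group labelled as a knockout, whereas WT male 1 lay above a pair of WT females. The difference was -1.16 (95% interval -1.63 to -0.68, adjusted p = 0.00978 from limma), and within the genotypes it was -0.85, -1.28 and -1.34 in the order above. Without the pair of libraries with few genes at 0 it was -1.27 (adjusted p = 0.016 from limma). Over all alternatives the adjusted p from limma ranged from 0.000252 to 0.998, and the call was lost in WT alone and in the libraries labelled Ahrr-/- alone, with 6 libraries each.

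Bcl2a1a was also lower in males, by a difference of -0.60 (95% interval -0.91 to -0.29, adjusted p = 0.0315 from limma). It was -0.39 in WT, where the sexes overlapped, and -0.46 and -0.96 in the libraries labelled Ahr-/- and Ahrr-/-, where every female was above every male. This call rests on single libraries: it was lost (adjusted p up to 0.0698 from limma) when any of WT female 2, WT female 3, WT male 2 or WT male 3 was left out. The same held for female 2, male 1 and male 2 of the libraries labelled Ahr-/-, and for female 1, female 2 and male 2 of those labelled Ahrr-/-. Without the pair of libraries with few genes at 0 the difference was -0.565 (adjusted p = 0.0788 from limma, with a range of 0.00376 to 0.998 over all alternatives). Bcl2a1b and Bcl2a1d differed by -0.51 (adjusted p = 0.138) and -0.46 (adjusted p = 0.111) and were not called by limma. The other 6 members had differences between -0.33 for Bax and 0.12 for Bcl2. Without the same pair of libraries, the difference of Bax was -0.145.

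Whether the difference between the libraries labelled Ahr-/- and WT depends on sex was tested with an interaction term. It was called by limma for 0 of the 10 members and for 0% of the 11346 genes tested, while 533 genes and 0 members had an unadjusted p below 0.05. The intervals were wide, from -0.71 to 0.56 for Bcl2a1a and from -1.70 to 0.83 for Bcl2l11, so 3 animals of each sex and genotype leave the size of a sex-dependent difference largely unmeasured.

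**Figure D4:**
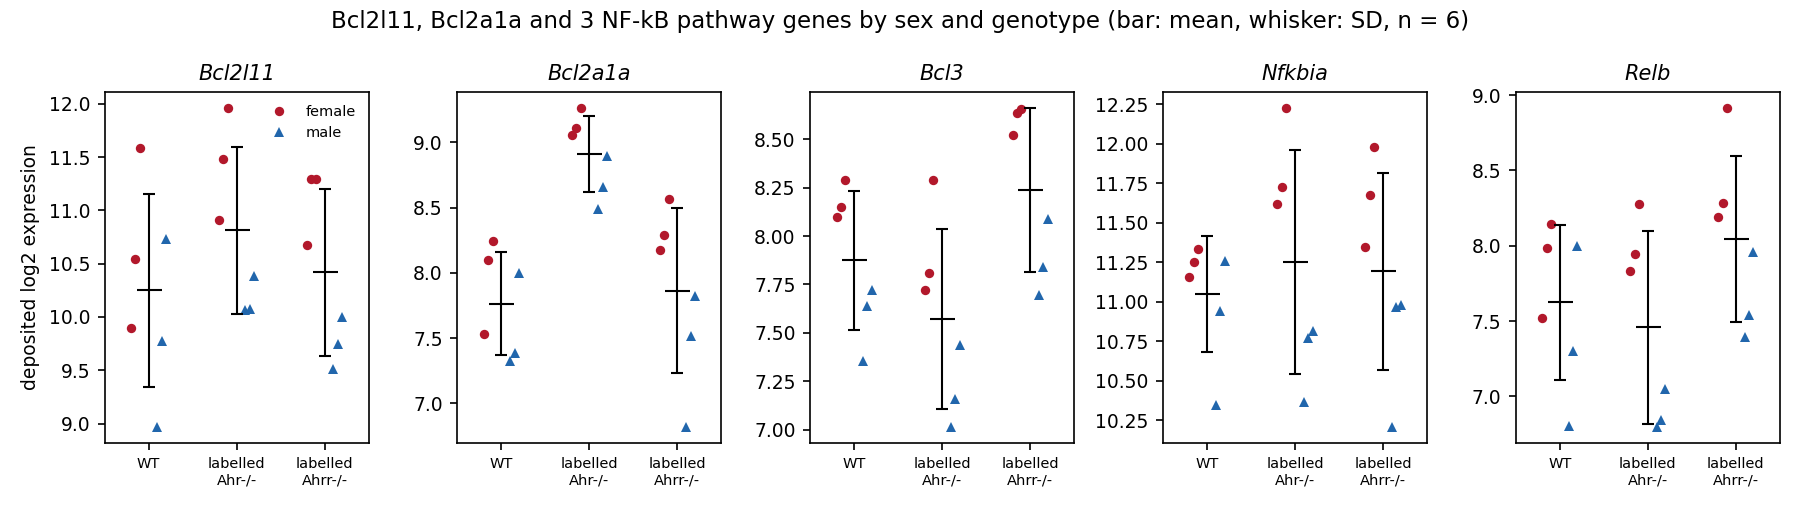
Deposited log2 expression of Bcl2l11, Bcl2a1a and the NF-kB pathway genes Bcl3, Nfkbia and Relb in each mouse, females as red circles and males as blue triangles, with the mean and SD of each group of 6. In the libraries labelled Ahr-/- and Ahrr-/-, every female is above every male for Bcl2l11 and Bcl2a1a.

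Genes whose levels run alike across the libraries were ranked over 11458 genes by Pearson r over the 18 libraries, which share genotype and sex. Closest to the mean of the Bcl2a1 copies were P2ry10 (r = 0.936), Nrros (0.935), Il1b (0.923), Dusp16 (0.92) and Cyfip2 (0.918). Once the mean of each genotype and sex was subtracted, r was 0.857 for P2ry10 and 0.653 for Il1b. P2ry10 had levels of 9.39 to 10.70 in WT, 10.99 to 11.68 in the libraries labelled Ahr-/- and 8.97 to 10.38 in those labelled Ahrr-/-, so the libraries labelled Ahr-/- stood above both other groups without overlap. Closest to Bcl2l11 were Snx10 (r = 0.978), Cwc25 (0.967), Mpp7 (0.958), Hdac5 (0.957) and Tnfrsf1b (0.955), and with genotype and sex subtracted these were 0.96, 0.922, 0.956, 0.909 and 0.925. Such likeness says nothing of shared function or control. Among the members, the r of Bcl2a1b with Mcl1 was 0.439 over all 18 libraries and 0.883 with genotype and sex subtracted. Bcl2a1b and Bcl2l11 had r = 0.722 and 0.694 in the same order, and Bcl2 and Bid had 0.707 and 0.244.

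The wider death and survival pathway was read from 11 lists with 79 genes, of which 70 were tested. In the libraries labelled Ahr-/- against WT, 2 of these 70 were called higher and 5 lower, beside 8.84% of all tested genes called in either direction. Not every called gene of these lists is described. The list of the IL-5 family receptor with JAK2, STAT5 and PIM kinases had 2 of 11 called in that comparison, both lower. These are Csf2rb, which encodes the shared beta chain, and its close relative Csf2rb2. Csf2rb had a lowest, median and highest level of 12.16, 12.69 and 12.90 in WT, of 10.88, 11.23 and 11.45 in the libraries labelled Ahr-/-, and of 11.52, 12.49 and 13.09 in those labelled Ahrr-/-. All 6 libraries labelled Ahr-/- were below every library of both other groups. The difference to WT was -1.45 for Csf2rb and -1.78 for Csf2rb2, whose groups did not overlap either (adjusted p = 1.39e-06 and 1.31e-06 from limma). Il5ra, which encodes the IL-5-specific alpha chain, was 0.35 higher against WT without being called (adjusted p = 0.179 from limma). Csf2rb and Csf2rb2 are themselves closely related copies, so reads may be shared between them as well.

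Of the apoptosome and mitochondrial release genes, 1 of 7 was called in the libraries labelled Ahr-/- against WT, namely Cycs, which encodes cytochrome c, with a difference of -0.63 (adjusted p = 0.0321 from limma). Of the inhibitor of apoptosis genes, 3 of 9 were called: Birc3 at -0.62, Naip5 at 0.51 and Naip2 at 0.35 (adjusted p = 0.0403, 0.0325 and 0.0438 from limma). The NAIP genes take part in sensing bacterial proteins.

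The 6 lists that follow had 0 of their 35 tested genes called by limma in the libraries labelled Ahr-/- against WT, and 8 of these had an unadjusted p below 0.05. The largest difference was -0.34 for Bcl2l2, the 1 tested gene among the other pro-survival BCL2 genes, and 0.46 for Bmf among 5 tested BH3-only and BNIP genes. It was -0.54 for Bcl2l15 among 4 BCL2-like genes of less settled role and -0.40 for Tnfsf10 among 11 death receptors, ligands and adaptors. It was 0.66 for Tnfaip3 among 10 NF-kB subunits and inhibitors, and 0.09 for Fbxw7 among 4 genes of MCL1 turnover. Bok, the other effector, did not reach the minimum level, and its normalized counts averaged 5.76 for WT and 3.84 for the libraries labelled Ahr-/-.

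**Figure D5:**
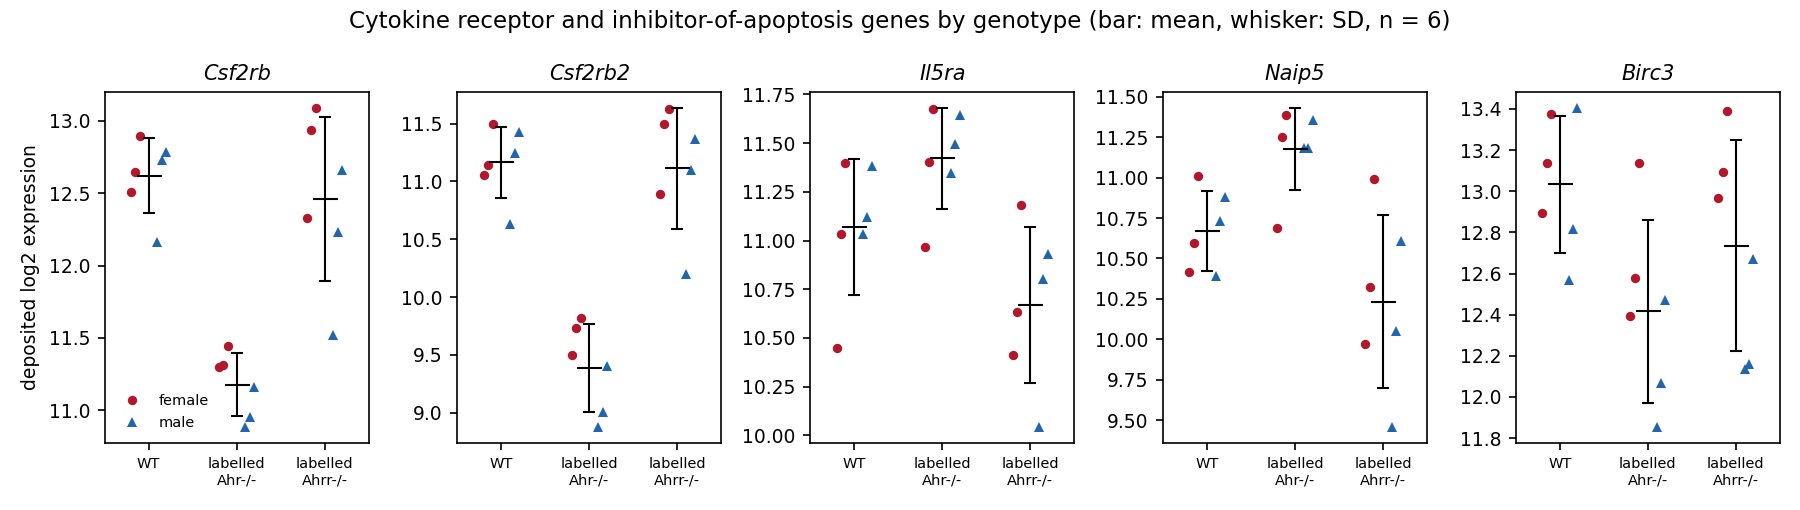
Deposited log2 expression of Csf2rb, Csf2rb2, Il5ra, Naip5 and Birc3 in each mouse, females as red circles and males as blue triangles, with the mean and SD of each group of 6. Csf2rb and Csf2rb2 are lower in all 6 libraries labelled Ahr-/- than in any library of the other groups.

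In the libraries labelled Ahrr-/- against WT, 0 of the 70 pathway genes were called by limma, and 4 had an unadjusted p below 0.05. Between the libraries labelled Ahr-/- and those labelled Ahrr-/-, 3 were called higher and 9 lower, beside 14.9% of all tested genes called in either direction. Csf2rb2 (-1.72) and Csf2rb (-1.28) again lay lower without overlap in the libraries labelled Ahr-/-, and Cycs was lower by a difference of -0.80. Il5ra (0.75), Naip5 (0.94) and Nfkb1 (0.51) were the genes called higher. Also called lower were Birc5 (-0.82), Bcl3 (-0.67), Tnfsf10 (-0.66), Relb (-0.59) and Ripk3 (-0.45).

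Between the sexes, 10 of the 70 pathway genes were called, all of them lower in males, beside 3.06% of all tested genes called in either direction and 2.46% called lower. The list of NF-kB subunits and inhibitors held 7 of these among its 10 genes, and its median difference, male minus female, was -0.68 against 0.01 for all tested genes. Its largest differences were -0.85 for Nfkbia, -0.82 for Relb and -0.72 for Nfkbie (adjusted p = 0.00798, 0.00858 and 0.0368 from limma). Nfkbia and Relb had every female above every male in the libraries labelled Ahr-/- and in those labelled Ahrr-/-, and the sexes overlapped in WT. The other called genes were Traf1 at -0.59, Pim3 at -0.53 and Bcl2l13 at -0.37. For the interaction of genotype and sex, 0 of the 70 genes were called by limma, and 6 had an unadjusted p below 0.05.

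Markers of other cell types moved along with the members and are given for each whole list, as the summed normalized count. The 10 eosinophil markers, led by Alox15, summed to 24866 to 38211 in WT (median 35018), 38503 to 49555 in the libraries labelled Ahr-/- (median 44609) and 14322 to 38775 in those labelled Ahrr-/- (median 32034). No eosinophil marker was at 0 in all libraries, while Ear6 had at most 3 counts in any of them. Over the 18 libraries, the Pearson r of this sum with the mean of the Bcl2a1 copies was 0.776. The 9 epithelial markers, led by Muc2 and all detected in every library, summed to 5685 to 17646 in WT, 3865 to 6859 in the libraries labelled Ahr-/- and 4739 to 32056 in those labelled Ahrr-/-. Their r with the Bcl2a1 copies was -0.784, and with Bcl2l11 it was -0.637. The 5 markers of dividing cells, led by Mki67 and all detected in every library, summed to 2869 to 5657, 1815 to 3519 and 1777 to 9110 in the same order of groups, with an r of -0.778 with the Bcl2a1 copies. Epithelial and dividing-cell markers were thus low in libraries where the Bcl2a1 copies were high, and their part in these results was not tested.

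The remaining lists are given by their medians in WT, in the libraries labelled Ahr-/- and in those labelled Ahrr-/-. The 8 pancreatic acinar markers, led by Ctrb1, had 1277, 38.2 and 51.2, with a highest value of 4104 in WT male 3. The 9 markers of macrophages and dendritic cells, led by Itgax, had 9367, 11585 and 9644. Itgax held 71.6% of that sum, so the sum speaks for little else. Of the 8 genes of this list tested in the libraries labelled Ahr-/- against WT, 4 were higher, with a median difference of -0.07, and 2 were called higher (Csf1r and Itgax) and 1 lower (Cd68). In the other lists, Prg2 (2.30), Cxcr2 (0.648) and Alox15 (0.579) were called higher in that comparison. Called lower were Ctrb1 (-2.741), Cela2a (-1.552), Prss2 (-1.223), Muc2 (-1.119), Top2a (-0.919) and Pecam1 (-0.626). The B and plasma cell markers, of which 6 of 7 were in the table and Jchain led, had 1020, 719 and 4709. The 8 neutrophil markers, led by Cxcr2 over all libraries, had 816, 1168 and 2129. In the libraries labelled Ahrr-/-, S100a9 led in every library except male 2. S100a8 and S100a9 were called higher there against WT, and no other marker was called in that comparison. Endothelial markers, 96.0% of which were Pecam1, had 3296, 2112 and 2809. The sums were smaller for fibroblasts (85.7, 77.2 and 297.7, led by Col3a1), mast cells (83.9, 111 and 192, led by Kit) and T cells and innate lymphocytes (34.0, 41.3 and 88.1, led by Cd4, with Gata3 at no more than 3 counts in any library). The r of these lists with the Bcl2a1 copies lay between -0.455 for the acinar list and 0.53 for macrophages and dendritic cells. With Bcl2l11, the r of the mast cell list was 0.704, the largest of all lists in absolute value, but Kit held 81.2% of that sum and some libraries had only 2 of the 8 markers detected. With Bcl2, r was 0.698 for the eosinophil list, -0.686 for fibroblasts, -0.641 for epithelial cells and -0.608 for B and plasma cells. It was 0.568 for macrophages and dendritic cells and -0.553 for dividing cells. Between the libraries labelled Ahr-/- and those labelled Ahrr-/-, 4 of 5 tested eosinophil markers were called higher (Siglecf, Il5ra, Prg2 and Alox15). Called lower were 4 of 9 epithelial markers (Epcam, Krt8, Krt18 and Lgals4) and 3 of 5 dividing-cell markers (Top2a, Ccnb1 and Birc5). Jchain, Xbp1, S100a8, S100a9, Cdh5, Eng and Col1a2 were also called lower. Of 9 tested macrophage and dendritic cell markers, 1 was called higher and 2 lower. The part of these cells in the results was not tested.

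Markers also differed between the sexes. Over all genotypes, 9 of 9 epithelial markers were higher in males (median difference, male minus female, 0.46) and so were 5 of 5 markers of dividing cells (0.32), with 0 of either list called by limma, and 2 epithelial and 0 dividing-cell markers at an unadjusted p below 0.05. In the other lists, 1 gene was called higher in males (H2-Ab1, 1.34) and 2 were called lower (Kit, -0.94, and Ltf, -0.84), with adjusted p = 0.0426, 0.0245 and 0.021 from limma. These are all the markers called between the sexes, and like the other called markers they are named after their values were seen. The lower levels of Bcl2l11 and Bcl2a1a in males were thus seen beside shifts in markers of other cells, whose part in them was not tested.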

How the data were processed

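RNA of sorted small-intestinal eosinophils was measured in 18 libraries. Per the labels, the authors used STAR 2.5.2, RSEM 1.3.0, DESeq2 and R 4.0.3 with GRCm38, whereas the study's methods name nf-core/rnaseq. The deposited values are variance-stabilized log2 expression of counts scaled by a size factor. Turning this scale back gave whole counts for 100% of values (tolerance 0.0001), used for depth, sums and levels per kb.

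Each gene with a mean at least 1 above the lowest value was fitted with limma 3.58.1 (R 4.3.3, trend, sex or genotype as covariate, Benjamini-Hochberg over all tested genes), and the code was tested on simulated data. Summed counts were compared with exact permutation tests in Python 3.11.15 with numpy 2.4.6, pandas 2.3.3 and scipy 1.17.1. Biopython 1.88 aligned sequences and matplotlib 3.10.9 drew the figures. The members and lists were chosen with earlier results of these data known. Genes named are all members, the 3 largest called genes of each pathway list, or the largest where none was called, and the 5 most alike. Alternatives varied the minimum, scaling, trend, weights, covariates and libraries.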

Additional observations from a re-analysis of the deposited data

Results flagged for a closer look

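In 3 of 30 groups (10 genes in 3 groups of 6 libraries), the gap between an extreme library and its nearest neighbour took up more of the group's range than Dixon's critical value. Chance alone gives this in about 1 in 20 groups. Bcl2a1d had its lowest value in the libraries labelled Ahr-/- in male 1, at 7.48 (105 counts) with the nearest at 8.18, a gap of 0.694 of the range. Bak1 had its lowest value in the libraries labelled Ahr-/- in male 2, at 8.53 with the nearest at 8.82, a gap of 0.68 of the range. Bid had its highest value in WT in male 3, at 8.21 with the nearest at 7.97, a gap of 0.653 of the range.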

How the results depend on the processing

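Against WT, Bcl2a1a, Bcl2a1b, Bcl2a1d and Bcl2 stayed called in the libraries labelled Ahr-/- under all alternatives in which they were tested, with adjusted p up to 0.000585, 0.0316, 0.0287 and 0.047 from limma. The stricter minimum, 3 above the lowest value, left Bcl2a1d untested, so 3 members were called. The libraries labelled Ahrr-/- had 0 members called against WT by limma under all 24 alternatives. Between the groups labelled as knockouts, the stricter minimum gave 3 called members in place of 5, since Bcl2a1d and Bid went untested, and leaving out 1 library gave 5 to 6.

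The count between the sexes was the least stable. It was 1 with no minimum, 4 with array weights, 0 in WT alone, 1 in the libraries labelled Ahr-/- alone, 0 in those labelled Ahrr-/- alone and 1 without the pair of libraries with few genes at 0. Leaving out 1 library gave 1 to 4, and it gave 4 without WT female 1 or WT male 1. The groups taken alone hold fewer libraries, and for the other settings the cause was not tested. Bcl2l11 stayed called without any single library (adjusted p up to 0.0276 from limma), and was not called in WT alone (0.998) or in the libraries labelled Ahrr-/- alone (0.298).

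The replicate numbers are not said to pair animals, and the correlation of deviations between equal numbers lay between -0.592 and 0.473. With them as a replicate block, the summed Bcl2a1 difference of 1266 to WT had p = 0.0625 in an exact sign-flip test, where 0.0312 is the smallest possible, and the direct comparison had p = 0.0312. The cause was not tested.

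The number of all genes called moved more than that of the members. Without female 1 of the libraries labelled Ahr-/- it was 623 in place of 1003 against WT. Leaving out 1 library gave 4 to 25 in place of 9 for the libraries labelled Ahrr-/- against WT, 818 to 2574 in place of 1708 in the direct comparison and 142 to 733 in place of 351 between the sexes. The lowest count of any member was 18, for Bcl2l1, and how far depth limits each member was not compared. The settings that leave out the pair, or take 1 knockout label alone, were chosen after seeing the data.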
